A study of Mus musculus with 12 samples.

Results

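The 6 genes of mouse type IV collagen, Col4a1 to Col4a6, were followed in all 6 sample groups of a study of the forkhead transcription factors Foxc1 and Foxc2 in glomerular podocytes. They were chosen by name, through the accession that the array design gives each probe. No measured value entered that rule, but earlier results of these data were known when the genes were chosen. The 6 genes had 9 probes in all, 3 for Col4a4, 2 for Col4a6 and 1 for each of the others. Every one of these probes was well above background on all 12 arrays, so all 6 genes were tested, among 15243 of the 20144 genes with a probe.

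Type IV collagen is the network-forming collagen of basement membranes, and its chains assemble inside the cell into triple helices of fixed composition. The products of Col4a1 and Col4a2 form one kind of helix, found in nearly all basement membranes. Those of Col4a3, Col4a4 and Col4a5 form the kind that podocytes lay down in the mature glomerular basement membrane, and mutations in the human genes cause Alport syndrome. The products of Col4a5 and Col4a6 meet in a further kind, known in the kidney from Bowman's capsule.

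All samples came from mice with a tamoxifen-inducible Cre and floxed alleles of both genes (Foxc1 flox/flox; Foxc2 flox/flox). The genotype labels give the gene after Foxc1 a changing number, and the name in the series title was used. Which promoter drives the Cre, and so in which cells, is not given in the sources used here. There were 2 samples in each group. The first group was glomeruli of mice injected intraperitoneally with tamoxifen at an age of 8 weeks, on 3 consecutive days, with isolation on day 7, and the second was glomeruli of mice with no agent, whose age the labels do not state. The others were primary podocyte cultures, expanded from glomeruli of adult mice, treated with tamoxifen or mock-treated for 4 days, and the same pair of treatments for 7 days. Tamoxifen samples had the drug and any recombination together, and no group separates them. The glomerular labels name separate mice, whereas nothing states that the numbered cultures were separate, so the spread between cultures may in part be technical. Each p-value rests on a spread within groups that was pooled over all groups, glomeruli and cultures together. Glomeruli, day 4 cultures and day 7 cultures each lay on a slide of their own, 3 slides in all. The tamoxifen comparisons were thus made within a slide, while culture against glomeruli and day 7 against day 4 cannot be told apart from slide.

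Across the arrays 57.9% to 63.4% of spots were well above background, and the 2 arrays of a group had r = 0.983 to 0.99 over genes. The number of arrays limits the precision. Levels are log2 signal relative to the 75th percentile of the same array. They were compared between arrays within a gene, never between genes, because probes differ in brightness. Differences are tamoxifen minus control or mock unless stated, each with its standard error (SE) from limma and a Benjamini-Hochberg adjusted p over all genes tested. A gene was called changed at an adjusted p under 0.05.

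The targeted genes were read first. Foxc2 had levels of -1.12 and -0.19 in tamoxifen glomeruli, against 2.10 and 2.24 in control glomeruli (difference -2.82, adjusted p = 0.037 by limma). That call was lost in 9 of 12 fits that left out 1 array (adjusted p up to 0.18). It held without tamoxifen glomeruli replicate 2 and without either day 4 tamoxifen array. In tamoxifen cultures Foxc2 was not well above background on any array (adjusted p = 0.0019 at day 4 and 0.00071 at day 7 by limma). Foxc1 read 0.92 and 1.09 in tamoxifen glomeruli, against 2.92 and 2.80 in control glomeruli, without passing the test (difference -1.86, SE 1.69, adjusted p = 0.63 by limma). That SE is pooled over all groups, among them day 7 tamoxifen cultures, where Foxc1 read -8.2 and -3.26. Foxc1 was lower in every tamoxifen culture than in the mock cultures of its day, without passing at either day (adjusted p = 0.14 at day 4 and 0.057 at day 7 by limma). In a contrast that averages both days, added after the values were seen, Foxc1 was called lower (adjusted p = 0.01 by limma), with tamoxifen replicate 1 not well above background on either day.

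The 6 genes lie in 3 pairs, each pair head to head on 1 chromosome and read in opposite directions. Col4a1 and Col4a2 are on chromosome 8, Col4a3 and Col4a4 on chromosome 1, and Col4a5 and Col4a6 on the X. RefSeq promoter windows (GRCm38.p6), from 250 bases before to 50 after the annotated start, were found for 5 of the 6 genes. The windows of Col4a1, Col4a2 and Col4a4 are shown because the genes of these pairs start so close together that their windows meet the neighbouring gene. The first is chr8:11312777-11313076 on the minus strand and the second is chr8:11312555-11312854 on the plus strand. Capitals mark the 78 bases that these windows share, as reverse complements of each other. The last is chr1:82586800-82587099 on the minus strand, with the bases that lie inside the annotated Col4a3 gene in capitals, 179 of 300.
Col4a1: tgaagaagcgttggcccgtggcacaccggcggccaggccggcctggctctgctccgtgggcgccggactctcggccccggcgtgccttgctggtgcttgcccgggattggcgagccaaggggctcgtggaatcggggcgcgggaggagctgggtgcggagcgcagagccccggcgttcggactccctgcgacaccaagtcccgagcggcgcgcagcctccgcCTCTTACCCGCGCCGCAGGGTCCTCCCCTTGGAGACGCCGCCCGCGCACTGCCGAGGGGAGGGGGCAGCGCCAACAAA
Col4a2: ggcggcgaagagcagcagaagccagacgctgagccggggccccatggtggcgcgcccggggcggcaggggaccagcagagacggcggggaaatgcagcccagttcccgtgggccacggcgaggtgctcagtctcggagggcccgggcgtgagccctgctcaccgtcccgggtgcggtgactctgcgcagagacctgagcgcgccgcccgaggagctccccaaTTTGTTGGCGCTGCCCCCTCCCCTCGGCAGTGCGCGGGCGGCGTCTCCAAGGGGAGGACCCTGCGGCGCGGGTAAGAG
Col4a4: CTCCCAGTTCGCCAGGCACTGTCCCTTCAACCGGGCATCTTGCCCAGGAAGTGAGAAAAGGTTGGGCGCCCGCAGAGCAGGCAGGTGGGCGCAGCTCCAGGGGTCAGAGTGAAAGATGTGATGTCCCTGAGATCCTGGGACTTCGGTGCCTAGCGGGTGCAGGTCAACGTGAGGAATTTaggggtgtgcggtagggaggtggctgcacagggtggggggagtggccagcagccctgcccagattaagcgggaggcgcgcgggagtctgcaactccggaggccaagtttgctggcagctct

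GC content was 74.0% in the Col4a1 window, 73.7% in that of Col4a2 and 63.3% in that of Col4a4, against a median of 52.7% over all 32851 promoter windows. The Col4a5 and Col4a6 windows, at 52.7% and 48.3%, were 842 bases apart and shared none. The forkhead core TAAACA, searched on both strands, had no match in any of the 5 windows, and 13.4% of all windows held it. The GC box GGGCGG matched once in Col4a1, 3 times in Col4a2, once each in Col4a5 and Col4a6 and not in Col4a4 (35.7% of all windows). CCAAT matched once each in Col4a1, Col4a2 and Col4a5 (37.4% of all windows), and TATAAA in no window (13.6%). A match describes letters only, and a missing match says nothing about binding.

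In cultures Col4a3 was lower with tamoxifen at both days, by 1.81-fold at day 4 and 1.97-fold at day 7, and its neighbour Col4a4 was lower by 1.49-fold and 1.68-fold. Col4a6 was higher, by 1.64-fold and 1.57-fold. None of these differences passed the test at a single day. Col4a1, Col4a2 and Col4a5 differed by less than 1.4-fold in every tamoxifen comparison. In total RNA, fewer cells of a type and less RNA per cell cannot be told apart.

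**Figure D1:**
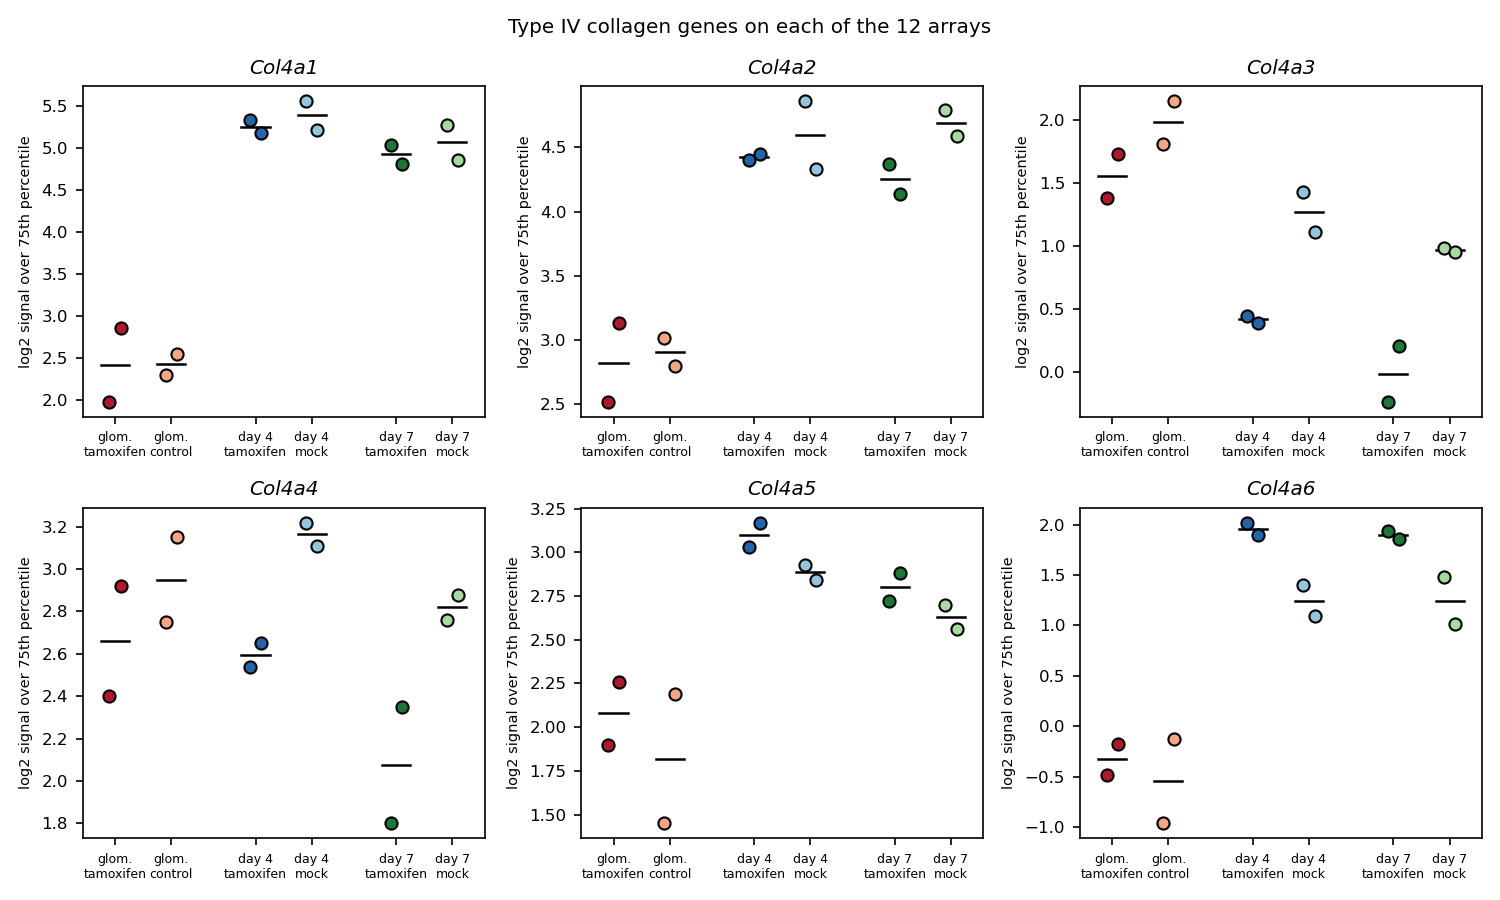
Level of each type IV collagen gene on each of the 12 arrays (vertical axis, log2 signal over the array's 75th percentile; glom. stands for glomeruli). Points are single arrays and black lines are means of 2. Col4a3 lies between -0.24 and 0.44 in the 4 tamoxifen cultures and between 0.95 and 1.43 in the 4 mock cultures.

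Col4a3 encodes a chain of the mature glomerular network. At day 4 its level was 0.44 and 0.39 in tamoxifen cultures, against 1.43 and 1.11 in mock cultures (difference -0.86, SE 0.20, 95% confidence interval -1.33 to -0.38, adjusted p = 0.16 by limma). At day 7 it was -0.24 and 0.20 in tamoxifen cultures, against 0.98 and 0.95 in mock cultures (difference -0.98, SE 0.20, interval -1.45 to -0.51, adjusted p = 0.082 by limma). Both tamoxifen cultures lay below both mock cultures on each day. In glomeruli Col4a3 read 1.38 and 1.73 with tamoxifen, against 1.81 and 2.15 in controls (difference -0.42, SE 0.20, adjusted p = 0.32 by limma). The glomerular groups did not overlap either, though by only 0.08. That is the order of the levels as well: day 7 tamoxifen lowest, then day 4 tamoxifen, day 7 mock, day 4 mock, tamoxifen glomeruli and control glomeruli. Only day 4 mock and tamoxifen glomeruli overlapped among neighbours in that order.

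Col4a4 encodes the partner chain and shares its start region with Col4a3, as the capitals in the printed window show. It read 2.54 and 2.65 in day 4 tamoxifen cultures, against 3.22 and 3.11 in mock cultures (difference -0.57, SE 0.24, adjusted p = 0.43 by limma). Its day 7 levels were 1.80 and 2.35 in tamoxifen cultures, against 2.76 and 2.88 in mock cultures (difference -0.75, SE 0.24, adjusted p = 0.23 by limma). The groups did not overlap on either day. In glomeruli it read 2.40 and 2.92 with tamoxifen, against 2.75 and 3.15 in controls, and the groups overlapped (difference -0.29, adjusted p = 0.58 by limma). The other probes of Col4a4 also read lower with tamoxifen, with differences of -0.66 and -0.48 at day 4, -0.42 and -0.57 at day 7 and -0.57 and -0.59 in glomeruli. One of them, the probe at -0.42, had overlapping groups at day 7 and in glomeruli. The probe at -0.59 had its glomerular groups apart (adjusted p = 0.26 by limma over all probes). From lowest to highest mean the order was day 7 tamoxifen, day 4 tamoxifen, tamoxifen glomeruli, day 7 mock, control glomeruli and day 4 mock, and all neighbours after the first step overlapped.

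Col4a5 is X-linked, and its product occurs in the helix with those of Col4a3 and Col4a4 and in the kind with that of Col4a6. It moved little with tamoxifen. It read 3.03 and 3.17 in day 4 tamoxifen cultures, against 2.93 and 2.84 in mock cultures (difference 0.22, SE 0.23). At day 7 it was 2.72 and 2.88 in tamoxifen cultures, against 2.70 and 2.56 in mock cultures (difference 0.17, SE 0.23). The differences were no larger than their standard errors, although the groups did not overlap, and limma's adjusted p was 0.84 and 0.86. Those standard errors are pooled over all groups. Replicate 1 minus replicate 2 was -0.74 in control and -0.36 in tamoxifen glomeruli, but only -0.17 to 0.14 in the culture groups. Glomeruli gave 1.90 and 2.26 with tamoxifen, against 1.45 and 2.19 in controls, which overlapped. All 8 cultures were above all 4 glomerular samples.

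Col4a6, whose chain pairs with that of Col4a5, read higher with tamoxifen in culture. Its level was 2.02 and 1.90 in day 4 tamoxifen cultures, against 1.40 and 1.09 in mock cultures (difference 0.71, SE 0.28, adjusted p = 0.41 by limma). At day 7 it was 1.94 and 1.86 in tamoxifen cultures, against 1.48 and 1.01 in mock cultures (difference 0.65, SE 0.28, adjusted p = 0.41 by limma). The groups were apart on both days. The other Col4a6 probe gave smaller differences of 0.30 at day 4, with the groups apart, and 0.13 at day 7, where they overlapped. In glomeruli the main probe read -0.48 and -0.17 with tamoxifen, against -0.96 and -0.12 in controls, and the groups overlapped. The other probe was at -3.15 and -3.03 there with tamoxifen, against -3.50 and -3.32 in controls, with the groups apart (difference 0.32, adjusted p = 0.27 by limma over all probes).

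Col4a1 and Col4a2 encode the chains of the widespread helix. Col4a1 read 5.33 and 5.18 in day 4 tamoxifen cultures, against 5.56 and 5.22 in mock cultures, and 5.04 and 4.81 in day 7 tamoxifen cultures, against 5.28 and 4.86 in mock cultures. In glomeruli it was 1.98 and 2.86 with tamoxifen, against 2.30 and 2.55 in controls. The groups overlapped in all 3 comparisons, with differences of -0.13 and -0.15 in cultures and -0.01 in glomeruli (SE 0.29 each). Col4a2 read 4.40 and 4.45 in day 4 tamoxifen cultures, against 4.86 and 4.33 in mock cultures, and 4.37 and 4.14 in day 7 tamoxifen cultures, against 4.79 and 4.59 in mock cultures. Its glomerular levels were 2.52 and 3.13 with tamoxifen, against 3.02 and 2.80 in controls. Only the day 7 groups of Col4a2 were apart (difference -0.43, SE 0.24, adjusted p = 0.54 by limma).

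**Figure D2:**
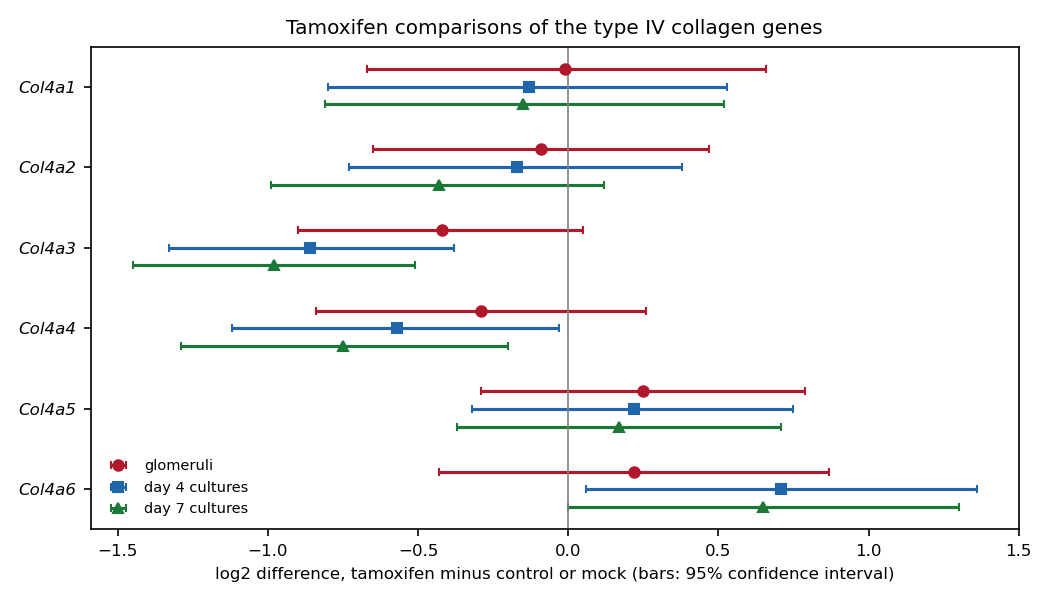
Difference of each type IV collagen gene between tamoxifen and its control or mock group (horizontal axis, log2) in glomeruli, day 4 and day 7 cultures. Bars are 95% confidence intervals of single genes, not adjusted for the number of genes. The culture intervals of Col4a3 and Col4a4 lie below 0, that of Col4a6 runs from 0.06 to 1.36 at day 4 and from 0 to 1.3 at day 7, and no gene was called over all genes tested.

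No member was called in the 3 tamoxifen comparisons. Over all genes tested 2.6% were called in glomeruli, 0.21% at day 4 and 0.971% at day 7. At an unadjusted p under 0.05 in limma, 0 members passed in glomeruli, where 18.3% of genes did. By the main probe the unadjusted count was 3 of 6 at day 4 (10.9% of genes) and 3 of 6 at day 7 (12.1%), Col4a3, Col4a4 and Col4a6 on both days. Non-overlap alone was common: 47.7% of genes in glomeruli, 50.4% at day 4 and 41.3% at day 7, against 1, 4 and 5 of the 6 members. The members' median difference was -0.05 in glomeruli, -0.15 at day 4 and -0.29 at day 7, against -0.05, 0.02 and 0 over all genes.

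In the contrast that averages both culture days, Col4a3 fell by 0.92 (SE 0.14, 95% confidence interval -1.25 to -0.59, adjusted p = 0.015 by limma), and all 4 tamoxifen cultures lay below all 4 mock cultures. It was the only member called, where 5.1% of all genes were called, 2.26% as lower. Without day 4 tamoxifen replicate 1, or without replicate 2 of the same group, the adjusted p was 0.055. Col4a4 differed by -0.66 (interval -1.04 to -0.27, adjusted p = 0.067 by limma) and Col4a6 by 0.68 (interval 0.22 to 1.14, adjusted p = 0.098 by limma). Each main probe had the 4 tamoxifen cultures on one side of the 4 mock cultures, as for 18.7% of all genes. The other Col4a4 probes differed by -0.53 and, with overlapping cultures, by -0.54. The other Col4a6 probe differed by 0.22, also with overlapping cultures. Without either control glomeruli array, which changes only the pooled spread, Col4a6 was also called (adjusted p down to 0.042). Since the contrast was picked for these values, its p is not independent evidence.

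The culture differences at day 7 and day 4 were also set against each other. For Col4a3 the day 7 difference was 0.13 further down than that at day 4 (-0.13, interval -0.79 to 0.54), and for Col4a6 it was -0.06 (interval -0.98 to 0.86). Limma's adjusted p was 1 for every member, 0 of 15243 genes were called (0%) and 136 (0.892%) had an unadjusted p under 0.05. Glomerular minus culture responses were called for none of the 6, where 1.09% of genes were. Col4a3 came nearest at 0.50 (interval -0.08 to 1.07, adjusted p = 0.37 by limma). In both of these comparisons the interval of every member included 0, and 0 members had an unadjusted p under 0.05.

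Markers of other cells were read beside these results as signal summed over each list, in units of the array's 75th percentile. The 10 podocyte markers, all well above background on every array, summed to 250 to 340 in tamoxifen glomeruli, against 374 to 476 in control glomeruli. All 10 read lower with tamoxifen there, with a median difference of -0.41 and 1 called. Other lists shifted there too: the 9 endothelial markers all read lower (median -0.32), as did 5 of 5 immune (-1.16) and 6 of 6 red cell markers (-4.89, 4 called). All 8 mesangial and mural markers (median 0.35, 1 called) and all 6 parietal markers (0.63) read higher, as did 7 of 8 tubule markers (1.5, 2 called). Of 5 fibroblast markers 4 read higher (median 0.11, none called), with sums of 38.1 to 51.9 in tamoxifen glomeruli, against 19.1 to 35 in control glomeruli. Over all genes 2.6% were called in glomeruli. The tubule markers summed to 64 to 92.4 in tamoxifen glomeruli, against 43.1 to 48.2 in control glomeruli. In cultures the podocyte sum was 72.1 to 72.8 with tamoxifen, against 69.1 to 70.9 in mock cultures at day 4, and 70.2 to 79.7 with tamoxifen, against 70.5 to 71.8 in mock cultures at day 7. Of the 10, 5 read higher and 5 lower at day 4, 4 higher and 6 lower at day 7, and none was called on either day. In the contrast over both days 1 was called lower, where 2.26% of all genes were. Immune markers were lower in 5 of 5 at day 4 (median -0.64) and 4 of 5 at day 7 (-1.23), none called. Parietal markers were higher in 5 of 6 at day 4 and 4 of 6 at day 7, with 1 called lower at day 7 (0.971% of all genes called). The 8 mesangial and mural markers summed to 289 to 311 with tamoxifen, against 218 to 241 in mock cultures at day 4, and 268 to 270 with tamoxifen, against 206 to 243 in mock cultures at day 7. Acta2 alone gave most of that summed signal in every culture. Of the markers, 5 of the 8 read higher and 3 lower at day 4, 4 higher and 4 lower at day 7, and none was called. The part of these markers in the collagen differences was not tested.

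Mock cultures were next compared with control glomeruli, the samples without tamoxifen. Col4a1 rose 6.98-fold, Col4a6 3.45-fold, Col4a2 3.32-fold and Col4a5 1.91-fold in culture, while Col4a3 fell 1.82-fold and Col4a4 did not pass. Thus 5 of 6 members were called, where 63.7% of all genes were, 37.8% higher and 25.9% lower, so a call as such is common here. Relative to control glomeruli, the difference was 2.80 for Col4a1 (SE 0.25, adjusted p = 3.8e-05), 1.73 for Col4a2 (SE 0.21, adjusted p = 0.00019), 0.93 for Col4a5 (SE 0.20, adjusted p = 0.0042) and 1.79 for Col4a6 (SE 0.24, adjusted p = 0.00037), all by limma. For Col4a3 it was -0.86 (SE 0.18, adjusted p = 0.0031 by limma). The groups of these 5 genes did not overlap, as for 71.4% of all genes, and all 5 were called in each of 12 fits that left out 1 array. Without control glomeruli replicate 1 the Col4a5 difference was 0.56. The other Col4a6 probe rose by 0.77. Col4a4 differed by 0.04 (interval -0.43 to 0.52), and its other probes by 0.28 and -0.12.

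**Figure D3:**
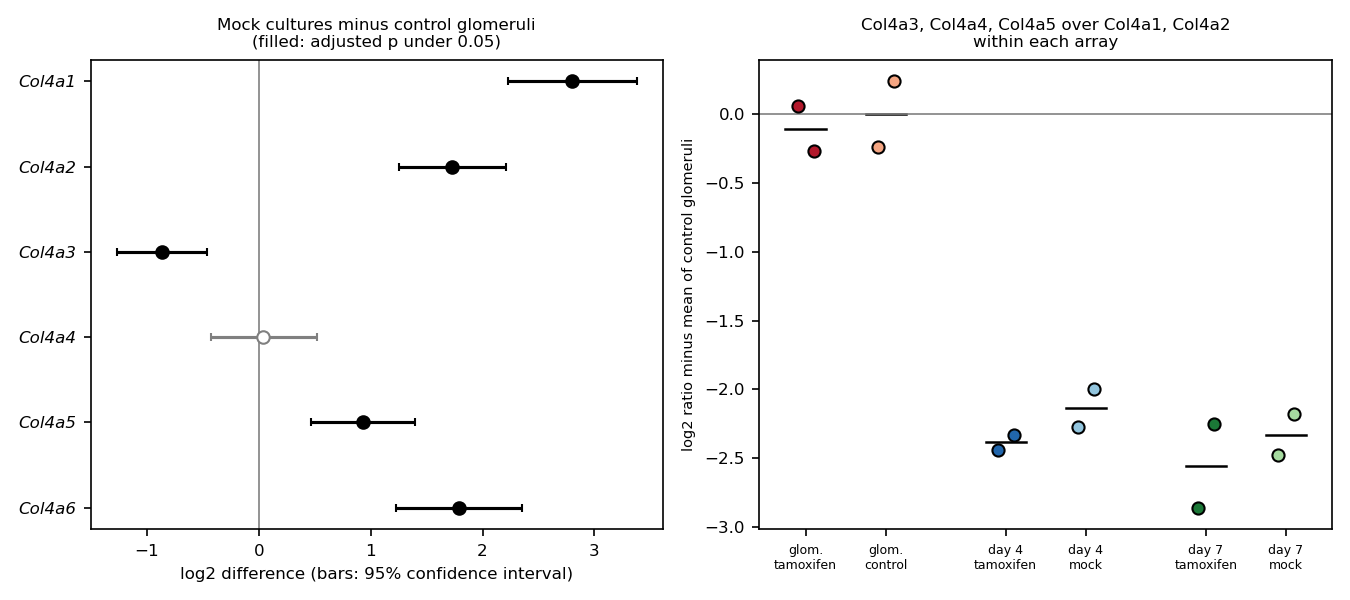
Left, difference of each type IV collagen gene between mock cultures and control glomeruli (horizontal axis, log2, bars 95% confidence intervals, filled points called). Right, log2 ratio of mean Col4a3, Col4a4 and Col4a5 over mean Col4a1 and Col4a2 within each array, relative to control glomeruli (glom. stands for glomeruli; lines are means of 2). All 8 cultures lie between -2.86 and -2, and all 4 glomerular samples between -0.27 and 0.24.

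Within each array, the mean log2 level of Col4a3, Col4a4 and Col4a5 was set against that of Col4a1 and Col4a2, as a shift from the mean of control glomeruli. That balance was 0.06 and -0.27 in tamoxifen glomeruli, against -0.24 and 0.24 in control glomeruli. At day 4 it was -2.44 and -2.33 in tamoxifen cultures, against -2.27 and -2 in mock cultures. At day 7 it was -2.86 and -2.25 in tamoxifen cultures, against -2.48 and -2.18 in mock cultures. Every culture was far below every glomerular sample, and the tamoxifen samples overlapped their controls in glomeruli and at day 7 but not at day 4. Col4a3 over Col4a5 averaged -2.84 in tamoxifen cultures, against -1.77 in mock cultures at day 4, and -2.97 in tamoxifen cultures, against -1.82 in mock cultures at day 7. In glomeruli Col4a3 over Col4a5 was -0.67 and -0.68 with tamoxifen, against 0.2 and -0.2 in controls. Such a ratio shows unequal change within an array and not which of its genes moved.

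Marker levels of these samples differed as well. Although all 10 podocyte markers were above background in every culture, 9 of 10 fell against control glomeruli, and their sum was 69.1 to 71.8 in mock cultures, against 374 to 476 in control glomeruli. The 9 endothelial markers all fell, and Tek and Tie1 were not well above background in any culture. All 8 tubule markers fell too, with Slc12a1, Slc12a3 and Umod not well above background in any culture. Mesangial and mural sums were 206 to 243 in mock cultures, against 35.1 to 76.8 in control glomeruli, although 6 of the 8 markers fell and 1 rose. Fibroblast sums were 71 to 149 in mock cultures, against 19.1 to 35 in control glomeruli, where 3 of the 5 markers rose and 1 fell. Over all genes 37.8% rose and 25.9% fell. The part of these markers in the difference between cultures and glomeruli was not tested. Among mock cultures, day 7 against day 4 called no member, where 0.0328% of genes were called, and none had an unadjusted p under 0.05 in limma. Col4a3 was at -0.31, Col4a4 at -0.34 and Col4a5 at -0.26 with groups that did not overlap, as for 29.8% of genes.

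Neighbouring genes were compared over the arrays. The 12 arrays form separate tissue and culture clusters, so the 8 cultures, which differ in treatment and day, are given beside them as a description. Col4a3 and Col4a4 correlated at r = 0.964 over the 8 cultures (rho 0.952), and among 15227 genes Col4a3 was rank 8 for Col4a4 and Col4a4 rank 20 for Col4a3. Over all 12 arrays their r was 0.745. Col4a1 with Col4a2 had r = 0.628 over the cultures and 0.978 over all arrays, and Col4a5 with Col4a6 had 0.573 and 0.941. The pair that read lower with tamoxifen in culture had the highest r there, while the other pairs had the higher r across tissue and culture. Col4a6 ran opposite to Col4a3 over the cultures (r = -0.78) and to Col4a4 (r = -0.73). All these values carry the differences between groups given above, and joint movement within a group was not tested.

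**Figure D4:**
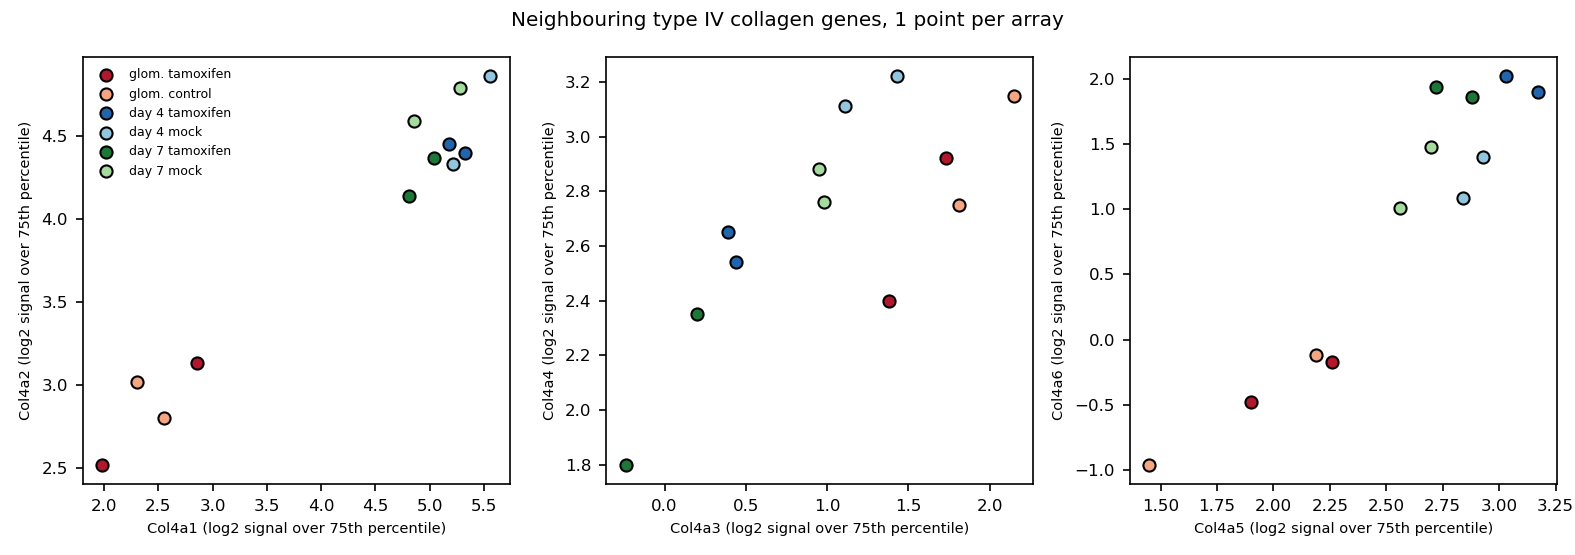
Levels of the 3 pairs of neighbouring type IV collagen genes, 1 point per array (both axes, log2 signal over the array's 75th percentile). In the middle panel the 8 cultures lie along a line from day 7 tamoxifen to day 4 mock, and the glomeruli lie to the right of that line.

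For each member the 3 genes with the closest profile over the 12 arrays were listed. For Col4a3 they were Clic5 (r = 0.982), which encodes an ezrin-associated protein of podocyte foot processes, Tjp1 (0.965), which encodes the junction protein ZO-1 found at the slit diaphragm, and Asxl3 (0.954). Over the 8 cultures these had 0.965, 0.975 and 0.915. For Col4a4 they were Zfp128, Pde3a and Daam2, at 0.905 to 0.907. Nearest to Col4a1 were Mospd1, Ube2l3 and Sox11 (0.992 to 0.995), and to Col4a2 were Ift46, Tuba1a and Spaca9 (0.982 to 0.985). Col4a5 was nearest to Stxbp6, Map3k21 and Vrk2 (0.973 to 0.978), and Col4a6 to Cacybp, Arl2 and Snrpd2 (0.993 to 0.996). The 12 arrays share the gap between glomeruli and cultures.

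The wider pathway was read through 6 lists of 86 genes in all, of which 83 were tested: 20 for chain biosynthesis, 10 for cross-linking, 16 for basement membrane partners, 10 of 11 for receptors, 13 of 15 for degradation and 14 for regulators. With tamoxifen 0 of the 83 were called in glomeruli and 0 at day 4, against background shares of 2.6% and 0.21%, while 13 and 22 had an unadjusted p under 0.05 in limma, where 18.3% and 10.9% of all genes did. At day 7 3 fell and none rose, against 0.971% of all genes called, and 25 had an unadjusted p under 0.05, against 12.1% of all genes. P3h2, a prolyl 3-hydroxylase that modifies type IV collagen, read -2.34 and -1.82 in day 7 tamoxifen cultures, against -0.01 and 0.66 in mock cultures (difference -2.41, SE 0.40, adjusted p = 0.041 by limma). The cross-linking transglutaminase gene Tgm2 read 4.56 and 4.45 with tamoxifen, against 5.53 and 5.27 in mock cultures (difference -0.89, SE 0.14, adjusted p = 0.037 by limma). Itga11, an integrin subunit that binds fibrillar collagen, read 0.55 and 0.88 with tamoxifen, against 3.67 and 4.04 in mock cultures (difference -3.14, SE 0.48, adjusted p = 0.032 by limma). All 3 had groups that did not overlap.

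These day 7 calls stood close to the threshold. The P3h2 call was lost in 9 of 12 fits that left out 1 array (adjusted p 0.047 to 0.27) and held without either day 4 mock array or without day 7 mock replicate 1. The Tgm2 call was lost in 10 of 12 (0.043 to 0.17) and held without either control glomeruli array. The Itga11 call was lost in 4 of 12 (0.029 to 0.20), those without a day 7 array. In the contrast averaged over both days, 10 of the 83 fell and 1 rose, where 5.1% of all genes were called. P3h2 (-2.14), Tgm2 (-0.78) and Itga11 (-2.73) fell there, and Tgfb3, a transforming growth factor ligand, rose by 1.33, with all of these calls kept in 12 of 12 such fits. The other 7 that fell, chosen for mention after their values were seen, were Loxl3, Tinagl1, Col18a1, Npnt, Fras1, Timp2 and Timp3 (-1.14 to -0.60), each losing its call in 5 to 10 of 12. With normexp background correction Npnt was at -0.24 in place of -1.02 (adjusted p = 0.46 by limma).

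**Figure D5:**
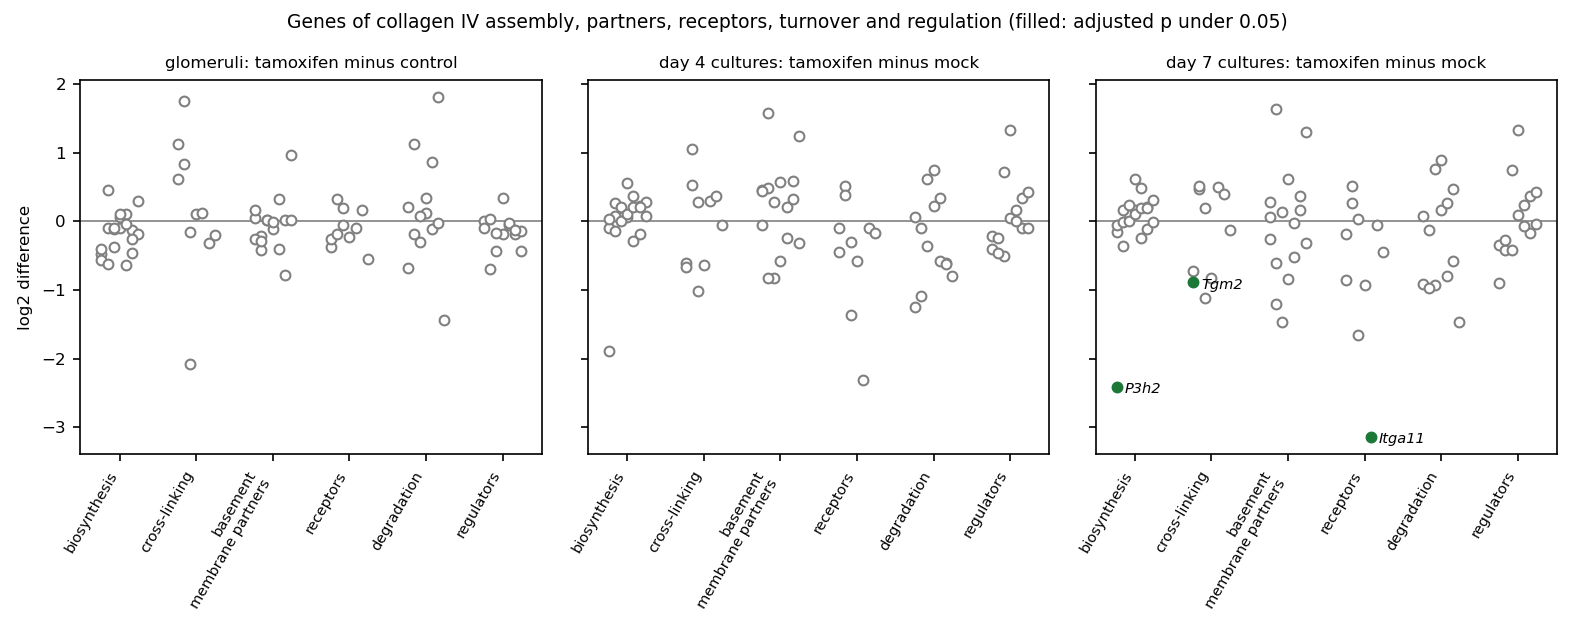
Difference of each tested gene of the 6 pathway lists between tamoxifen and its control or mock group (vertical axis, log2), 1 point per gene, in glomeruli (left), day 4 (middle) and day 7 cultures (right). Filled points were called: P3h2, Tgm2 and Itga11 at day 7, at -2.41, -0.89 and -3.14.

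Where a list had no call, its member furthest from 0 is given as a log2 difference. In glomeruli these were P4ha2 at -0.64, Loxl2 at -2.08 with overlapping groups, Lama1 at 0.96, Itga3 at -0.55 (adjusted p = 0.059 by limma), Mmp3 at 1.81 and Lmx1b at -0.69. The Mmp3 groups overlapped, with 1 of 2 arrays well above background in each. Itga3 encodes the laminin receptor subunit of podocytes, and Lmx1b a transcription factor that acts on Col4a3 and Col4a4 in mouse podocytes. At day 4 they were P3h2 at -1.88, Tinag at 1.05 with no array of either group well above background, Lama4 at 1.58, Itga11 at -2.31, Plat at -1.25 and Tgfb3 at 1.33. At day 7 they were Lama4 at 1.64, Mmp9 at -1.47 and Tgfb3 at 1.33 (adjusted p = 0.057 by limma). The Mmp9 groups overlapped, again with 1 of 2 arrays well above background in each.

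Between mock cultures and control glomeruli 44 of the 83 rose and 20 fell, where 37.8% of all genes rose and 25.9% fell. The counts of single lists below are descriptions against the same shares and were not tested. Of 20 biosynthesis genes 12 rose and 1 fell, among those that rose P4ha1 (log2 difference 2.48), a prolyl 4-hydroxylase subunit, and Plod2 (2.44), a lysyl hydroxylase. The gene that fell was Colgalt2, a galactosyltransferase gene, not well above background in any mock culture and at least 214-fold lower (adjusted p = 1.1e-06 by limma). Of the cross-linking genes 6 rose and 1 fell, with the lysyl oxidase gene Lox at least 863-fold higher (not well above background in either control glomeruli sample, adjusted p = 4.1e-07 by limma), Loxl1 higher by 6.32 on the log2 scale and Tinag at least 133-fold lower. These bounds set the brighter group's mean against, on each array, whichever was higher of the dim probe's value and the faintest signal that was well above background. They hold for this background subtraction: with normexp the log2 difference was -3.83 for Colgalt2, 6.37 for Lox and -3.66 for Tinag, each still called.

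Of the 16 basement membrane partners 5 rose and 10 fell. As log2 differences, the laminin chain gene Lama4 was at -5.43 (-3.51 with normexp), Col18a1, which encodes another basement membrane collagen, at -3.75 and Npnt, an integrin ligand, at -3.21. Receptors rose in 6 and fell in 1 of 10, with Itga11 at 7.61, the collagen-binding integrin gene Itga1 at 2.47 and the collagen receptor kinase gene Ddr1 at 2.21. Degradation genes rose in 8 and fell in 2 of 13, with Timp1 at 7.16 and the type IV collagenase gene Mmp2 at 3.99. Regulators split 7 against 5 of 14, with Tgfb3 at 5.18 and the podocyte transcription factor gene Tcf21 at -3.35. List medians were 0.72 for biosynthesis, 2.38 for cross-linking, -0.50 for basement membrane partners, 1.5 for receptors, 1.01 for degradation and 0.09 for regulators, against 0.18 over all genes and 1.33 for the 6 collagen genes.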

How the data were processed

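Per the labels' protocols, Cy3-labelled cRNA from total RNA was read on 1-colour Agilent arrays, with each sample on its own array. Per the file headers, the deposited scanner files hold linear spot intensity from Agilent Feature Extraction (version 11.5.1.1), with the background already subtracted. A value table deposited by the authors is on the log2 scale; against the scanner values each column was the log2 processed signal scaled to the 75th percentile, up to a constant (r = 1, median difference 0.094 to 0.12), with genes not centred. Its scale beyond that constant was not stated, and column medians were -4.14 to -3.81. It served as an alternative only.

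From the scanner files, controls and 83 to 134 outlier spots on each array were dropped, replicate spots averaged, and each array's 75th percentile (505.2 to 759.9 units) subtracted from the log2 processed signal. Of 39429 probes, 26581 matched 1 gene through the accession of the array design in a RefSeq table (GRCm38.p6), 0 matched several and 12848 none. Probes well above background on at least 2 arrays were kept, with the brightest probe on average standing for a gene. The 6 group means were fitted over all 12 arrays by lmFit and eBayes of limma 3.58.1 (R 4.3.3; 6 residual and 1.87 prior degrees of freedom, no block), and p-values were Benjamini-Hochberg adjusted over 15243 genes. The fit was tested on simulated data. With 2 samples a group an exact permutation test can give no p below 0.333, so none was run. Intervals are limma's at 95%.

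Named genes were all 6 members, Foxc1 and Foxc2, the 3 closest profiles for each member, and from each list up to 3 called genes by size, or 1 where none was called. Exceptions are given as such, and some genes that the rule names are not reported here. The members and lists were chosen with earlier results of these data known. Alternatives covered background correction (normexp, offset 50, on the median signal), scaling, filter, probe choice, the authors' table, eBayes options, arrays fitted, replicate and slide blocks and leaving out each array.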

Additional observations from a re-analysis of the deposited data

How the results depend on the processing

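The 5 calls between mock cultures and control glomeruli held in every alternative run. Under median scaling, the median of all genes there was 0.41 in place of 0.18, with Col4a3 at -0.63 and Col4a1 at 3.04. The added contrast over both days called 1 member, Col4a3, and 2 with normexp, 2 with a trended robust prior, 2 with a replicate block over all arrays, 3 with a replicate block shared by all cultures, and 0 to 2 without each array. Normexp called 2 at day 4 (Col4a3 and Col4a4), where it called 33.3% of all genes and moved their median to 0.19 from 0.02. At day 7 the replicate block shared by all cultures called 1 member, Col4a3 (adjusted p = 0.046). Labels do not say that equal numbers share a source. The deviations of same-numbered samples had r = 0.21 between the glomerular groups, 0.51 at day 4, 0.54 at day 7 and 0.39 to 0.55 between cultures of different days. Same-numbered cultures thus deviated together in all pairs of culture groups, a hint from the data and not the design, with only 2 numbers. That block called 943, 237 and 641 genes in glomeruli, at day 4 and at day 7, against 396, 32 and 148 without it, and the block over all arrays 466, 106 and 251.

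Small differences changed sign. Median scaling gave Col4a1 0.05 in glomeruli and 0.02 for day 7 minus day 4 responses, as did quantile normalization (0.02), and normexp gave Col4a5 -0.07 at day 4. For those responses normexp gave Col4a1 0.30, Col4a2 0.01, Col4a4 0.07, Col4a5 0.24 and Col4a6 0.15. In mock day 7 against day 4, Col4a6 was -0.06 by median scaling, -0.02 by quantile normalization and -0.01 in the authors' table, and Col4a2 -0.02 by quantile normalization. Col4a4 in mock cultures against control glomeruli was -0.12 by quantile normalization and -0.10 with the replicate block shared by all cultures. Without each array in turn, glomerular differences ranged from -0.45 to 0.43 for Col4a1, -0.40 to 0.22 for Col4a2, -0.12 to 0.62 for Col4a5, -0.20 to 0.64 for Col4a6 and -4.76 to 0.59 for Loxl2. Day 4 ranges were -0.30 to 0.04 for Col4a1 and -0.44 to 0.09 for Col4a2, and the day 7 range was -0.36 to 0.06 for Col4a1. Day 7 minus day 4 responses ranged from -0.23 to 0.20, -0.53 to 0.0039, -0.35 to 0.10, -0.45 to 0.10, -0.13 to 0.04 and -0.29 to 0.17 for Col4a1 to Col4a6 in order. Glomerular minus culture responses ranged from -0.31 to 0.57 for Col4a1, -0.09 to 0.52 for Col4a2 and -0.31 to 0.43 for Col4a5. Mock day 7 against day 4 ranged from -0.17 to 0.36 for Col4a2 and -0.23 to 0.23 for Col4a6, and Col4a4 in mock cultures against control glomeruli from -0.15 to 0.24. The cause was not tested.

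Counts over all genes moved more: 5 in glomeruli, 5077 at day 4 and 57 at day 7 with normexp, 0, 0 and 1 on only the arrays compared, and 89 to 495, 7 to 78 and 9 to 238 without each array. Slide as a block gave the same tamoxifen values and could not be fitted across slides. The number of arrays limits what could be detected.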
